A study of Mus musculus with 6 samples.

Results

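Serotonergic raphe neurons of the mouse brainstem were studied in single-nucleus RNA profiles of the pons and medulla of wild-type male C57BL6/J mice that had been exposed to chronic intermittent hypoxia (CIH, 3 libraries) or kept in room air (normoxia, 3 libraries). They were taken as nuclei with at least 2 unique molecular identifiers (UMIs, counted molecules) of Tph2, at least 3 UMIs over Tph2, Slc6a4, Fev, Slc18a2 and Slc22a3 with at least 2 of these genes detected, at least 5 UMIs of the neuronal RNA Meg3, and at most 1 UMI of the myelin genes Mog and Mag together. The rule was met by 93 of 40139 nuclei kept for having no fewer than 500 detected genes and a mitochondrial share of UMIs of 5% or less. In the CIH libraries 9, 8 and 23 nuclei met it, 40 in all, against 10, 15 and 28 nuclei, 53 in all, in the normoxia libraries. CIH ran from postnatal day 22 to postnatal day 43, after weaning at day 21, in 80 cycles a day over 8 hours for 21 days. In each cycle nitrogen brought inspired oxygen to between 4.5 and 5% within 60 seconds, and air then restored 21% over up to 5 minutes. Normoxia mice stayed in room air over the same days. The labels do not give how many mice made a library, so p-values measure only the spread between these libraries, which may be partly technical.

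Serotonergic neurons sit in a chain of midline nuclei, the raphe, from the midbrain border to the caudal medulla. Rostral groups project mainly to the forebrain, while medullary groups project to brainstem respiratory nuclei and to the spinal cord and are studied for their part in breathing, chemoreception and arousal. They make serotonin from tryptophan with tryptophan hydroxylase (Tph2) and aromatic amino acid decarboxylase (Ddc), with a pterin cofactor made through Gch1. Serotonin is loaded into vesicles by Slc18a2, taken back up by the transporter Slc6a4 and broken down by the monoamine oxidases, and the fate is set and kept by the transcription factors Fev (Pet1), Lmx1b, Gata2 and Gata3.

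The promoters of 3 of the marker genes are shown because they are the genes by which the nuclei were chosen. Fev is an ETS-family factor whose family binds a GGAA core, and Gata2 and Gata3 bind GATA sites, so GGAA and GATAA were searched on both strands (as TTCC and TTATC on the opposite strand) from 250 bases before to 50 bases after the start site. Sequences are RefSeq's on GRCm38.p6, written along the gene's strand, and capitals mark every match. All 5 marker genes had a promoter sequence there. The windows shown are chr10:115184973-115185272 on the minus strand for Tph2, chr1:74885359-74885658 on the minus strand for Fev and chr11:76998347-76998646 on the plus strand for Slc6a4.
Tph2: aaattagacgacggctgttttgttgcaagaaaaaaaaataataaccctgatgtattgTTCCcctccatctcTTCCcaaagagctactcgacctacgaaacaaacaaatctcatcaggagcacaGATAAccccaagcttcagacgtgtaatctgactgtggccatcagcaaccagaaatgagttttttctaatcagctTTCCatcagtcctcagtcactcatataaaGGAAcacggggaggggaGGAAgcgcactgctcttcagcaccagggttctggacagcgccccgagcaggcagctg
Fev: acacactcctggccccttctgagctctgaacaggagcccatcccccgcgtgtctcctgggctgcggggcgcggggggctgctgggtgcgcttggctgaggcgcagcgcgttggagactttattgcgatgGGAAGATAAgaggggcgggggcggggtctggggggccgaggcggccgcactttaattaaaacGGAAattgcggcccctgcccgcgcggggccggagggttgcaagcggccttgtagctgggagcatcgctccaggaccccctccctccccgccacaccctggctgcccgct
Slc6a4: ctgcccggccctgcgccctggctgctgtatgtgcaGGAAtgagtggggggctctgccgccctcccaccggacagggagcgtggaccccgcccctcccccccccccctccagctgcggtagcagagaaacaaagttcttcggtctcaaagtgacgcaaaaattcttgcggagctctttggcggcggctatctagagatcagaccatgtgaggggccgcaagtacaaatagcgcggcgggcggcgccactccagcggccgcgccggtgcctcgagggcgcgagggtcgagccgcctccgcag
The Tph2 window held 5 GGAA matches and 1 GATAA match. The Fev window held 2 GGAA matches and 1 GATAA match that directly follows one of them, with no shared base. The Slc6a4 window held 1 GGAA match and no GATAA match. Of 32851 promoters of this length in the table, 95.98% held GGAA, 25.41% held GATAA and 24.52% held both, so these matches are common and are given as a description of the windows.

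The 6 libraries held 43836 barcodes, with 26733243 to 46754345 UMIs each. Barcodes were shared far more between CIH library 1 and normoxia library 2 than between any other pair. These libraries had 1563 barcodes in common before filtering, 21.1% of the barcodes of normoxia library 2. Among kept nuclei they shared 1163 barcodes, against 2 to 31 in the other pairs. On a shared barcode normoxia library 2 held a median of 0.126 times the UMIs of CIH library 1 (10th to 90th percentile 0.117 to 0.136), and CIH library 1 had more in 99.7% of them. The median correlation of counts was 0.577 for the same barcode and 0.335 for the next barcode, over 300 barcodes. Of the 15 serotonergic nuclei of normoxia library 2, 4 were on shared barcodes and gave 7.96% of its summed UMIs. Results are therefore also given without those 4 nuclei. CIH library 3 had the highest median mitochondrial share of UMIs in kept nuclei, 0.366%, against 0.0624 to 0.0955% in the other libraries.

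The marker genes below were used by the rule, so their detection describes the nuclei and does not check the label. Slc6a4, the serotonin transporter, was detected in 86 of the 93 nuclei, the vesicular transporter Slc18a2 in 91, the organic cation transporter Slc22a3 in 49 and the transcription factor Fev in 11. Of the 93 nuclei, 9 had exactly 2 of the 5 marker genes, 29 had 3, 50 had 4 and 5 had all of them. Depth per nucleus had a median of 8425 UMIs and ran from 811 to 53943. Of serotonergic genes outside the rule, Ddc was detected in 87 of the 93 nuclei and Lmx1b in 64. No UMI of the noradrenaline and dopamine genes Th, Dbh, Slc6a2 and Slc6a3 or of Chat, which makes acetylcholine, was found in them. At the edge of the rule, 8 members had exactly 2 Tph2 UMIs, while 8 nuclei with 1 Tph2 UMI met all else and stayed outside. A further 13 neuronal nuclei with at least 2 Tph2 UMIs had no other marker, and 30 nuclei were outside because of Mog and Mag. Tph2 had 1477 CPM (UMIs of a gene scaled to the summed UMIs of the nuclei) in the serotonergic nuclei, against 1.59 CPM in the 16504 other neurons, which the rule had left with little Tph2, and 1.53 CPM in the 9473 oligodendrocyte nuclei (Mog and Mag of at least 3 together, Meg3 under 5).

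Levels in the serotonergic nuclei are set beside other neurons below as a description, with no test, because the nuclei were chosen by these counts. The genes of serotonin synthesis and handling stood far above other neurons also where the rule did not use them. Ddc had 913 CPM in serotonergic nuclei and 5.97 in other neurons. The antisense gene 1700042O10Rik overlaps Ddc on the opposite strand of chromosome 11. Whether strand was used in counting, and so whether their reads were kept apart, is not given. 1700042O10Rik was named after its values were seen and had 1025 and 5.69 CPM in the same nuclei. Gch1, the entry enzyme of the pterin cofactor, had 117 against 1.22 CPM, and Gchfr, the protein that regulates it, had 42.0 against 0.469 CPM. Maob, a monoamine oxidase, had 187 against 2.61 CPM, while Maoa, the other one, had 59.0 against 16.96 CPM.

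Other cofactor genes did not separate the nuclei in this way. Qdpr, which recycles the pterin, was seen in 14 serotonergic nuclei (15.1%), against 11.6% of other neurons and 46.0% of oligodendrocyte nuclei. Pts, a further step of cofactor synthesis, was seen in 13 serotonergic nuclei (14.0%), against 8.85% of other neurons. Tph1, the hydroxylase of peripheral tissues, had 1 UMI.

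Among the transcription factors, Lmx1b had 147 CPM in serotonergic nuclei against 20.0 in other neurons, Gata3 had 70.3 against 5.14 and Gata2 had 37.4 against 1.45. Fev was thinly counted, with 11 UMIs in 11 nuclei, 12.5 CPM against 0.048 in other neurons. Of the 14 listed factors 10 had a UMI, and Insm1 and Nkx2-2, factors of the progenitor stage, had 1 UMI each.

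**Figure D1:**
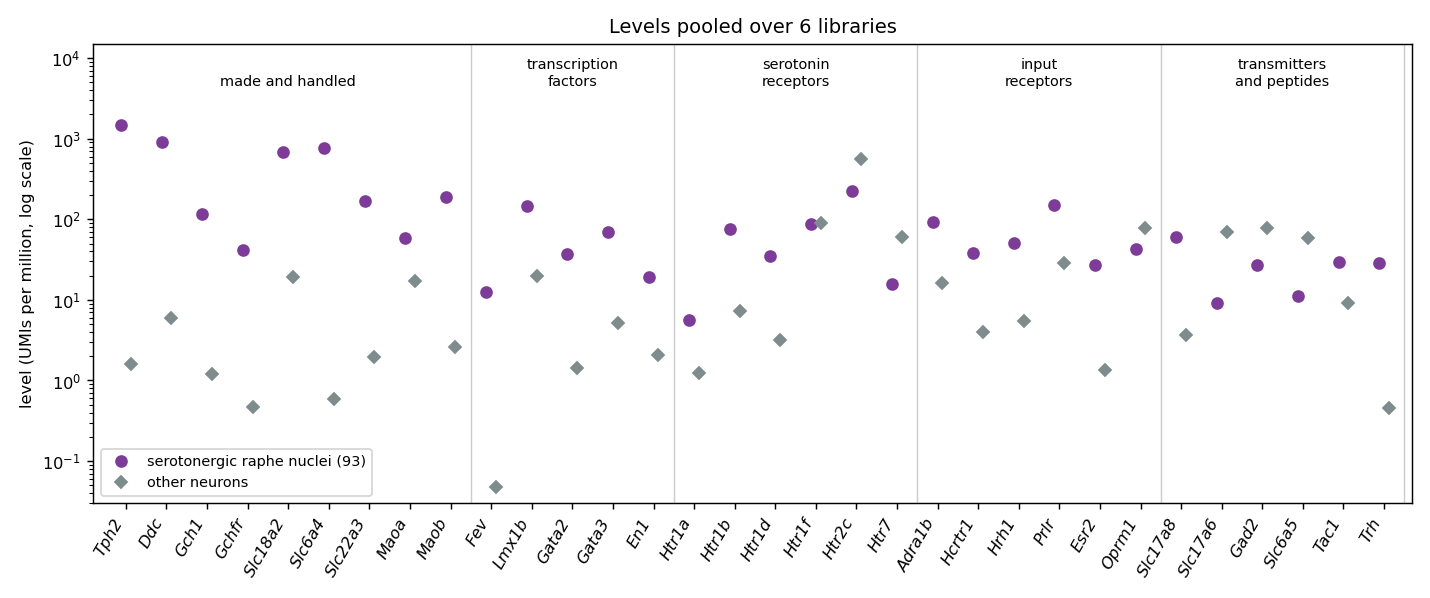
Levels of genes by role, in CPM on a log scale, pooled over 6 libraries. Circles are the 93 serotonergic nuclei and diamonds are other neurons. Genes of serotonin synthesis and handling and Fev are among those with the widest margins above other neurons. Maoa and Lmx1b lie above by narrower margins than Esr2 and Slc17a8. Htr1f is close between serotonergic nuclei and other neurons, and Htr2c, Htr7, Oprm1, Slc17a6, Gad2 and Slc6a5 lie below.

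Of the serotonin receptors, Htr1b and Htr1d, release-inhibiting autoreceptors of axon terminals, had 74.8 and 35.2 CPM in serotonergic nuclei against 7.26 and 3.14 in other neurons. Htr1b was seen in 43 of 93 nuclei. Htr1a, the autoreceptor of the cell body, was counted too thinly for more than its total, 5 UMIs in 3 nuclei. Receptors of target neurons lay the other way. Htr2c had 226 against 563 CPM, Htr7 had 15.9 against 59.7 and Htr4 had 1.13, from 1 UMI, against 68.1 CPM.

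Receptors for other inputs showed a mixed set. Prlr, the prolactin receptor, had 150 CPM in serotonergic nuclei against 29.0 in other neurons. Adra1b, an adrenergic receptor, had 91.9 against 16.1, Hrh1, a histamine receptor, had 51.0 against 5.55, and Hcrtr1, an orexin receptor, had 38.6 against 3.98 CPM. Esr2, an oestrogen receptor, had 27.2 against 1.37 CPM and was detected in 19 nuclei. The opioid receptor Oprm1 was lower in serotonergic nuclei, 43.1 against 79.0 CPM, and so was the substance P receptor Tacr1, 6.80 against 21.9 CPM.

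Of 25 genes linked to sensing of carbon dioxide or protons 18 had a UMI. The acid-sensitive potassium channel Kcnk9 had 62.4 CPM in serotonergic nuclei against 32.3 in other neurons, while its relative Kcnk3 had 9.07 against 17.5. Gpr4, a proton-activated receptor, had 9 UMIs in 9 nuclei, 10.2 against 0.832 CPM. Channels of firing included Kcnn3, a calcium-activated potassium channel, with 174 against 33.7 CPM, and the glycine receptor Glra2 had 191 against 47.3.

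The genes with the highest median ratio to other neurons, beside the 5 markers, began with the antisense gene 1700042O10Rik at 154 times and Ddc, which it overlaps, at 127 times in the median library. Of the 15 genes with the highest ratio, among those with at least 20 UMIs in each group of nuclei, 12 carry an ordinary name. After Ddc, Gch1 and Maob these were Gucy2f at 45.8 times, Cpne7, a calcium-binding copine, at 29.3 times, Vwa5b1 at 19.2, Tns1, a focal adhesion protein, at 16.1, Slc17a8 at 14.7, Pappa2, a protease that frees insulin-like growth factors, at 14.3, Fgd5 at 14.3, Stard13 at 13.1 and Dlk1 at 12.7 times. Their lowest ratio in any library was 4.56, for Stard13, which oligodendrocyte nuclei also express.

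Transmitter genes divided the nuclei. Slc17a8, the vesicular glutamate transporter of raphe neurons, was detected in 20 of 93 nuclei (21.5%), against 1.31% of other neurons and 0.148% of oligodendrocyte nuclei. Gad2, which makes GABA, was detected in 11 nuclei (11.8%), against 23.4% of other neurons and 2.47% of oligodendrocyte nuclei. Both were detected together in 4 nuclei. The glycine transporter Slc6a5 had 10 UMIs in 4 nuclei, and Slc17a6, the transporter of most brainstem glutamate neurons, had 8 UMIs in 4 nuclei. Median depth was higher in serotonergic nuclei (5036 to 11108 UMIs by library) than in other neurons (3604 to 5697) and oligodendrocyte nuclei (2289 to 3379), so each nucleus was also thinned to 2000 UMIs. Slc17a8 was then detected in 10.3% of serotonergic nuclei, 0.587% of other neurons and 0.101% of oligodendrocyte nuclei.

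The peptide genes Tac1, which encodes substance P, and Trh, thyrotropin-releasing hormone, are known in medullary raphe neurons. Tac1 was detected in 17 nuclei (18.3%), against 3.79% of other neurons and 1.30% of oligodendrocyte nuclei. Trh was detected in 14 nuclei (15.1%), against 0.236% and 0.095%. Both were found together in 6 nuclei. After thinning both stood at 5.75% of serotonergic nuclei, where Tac1 had 1.75% in other neurons and Trh had 0.0734%. Penk was detected in 10.8% of nuclei, against 9.19% of other neurons. Of the 20 listed peptide genes 13 had a UMI, and Cck, Npy and Vip were among those with none.

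Genes of brainstem level were detected, at few UMIs, in part of the nuclei. En1 and En2 mark the isthmus and the rostral rhombomere from which the dorsal raphe arises, and Hox genes mark the levels behind it. Of the 93 nuclei 31 had a UMI of any of 16 listed Hox genes, 12 had a UMI of En1 or En2, and 2 had both. Neither was seen in 52 nuclei. Whether fewer nuclei had both than unrelated detection would give was not tested. Neither Tac1 nor Trh had a UMI in the 10 nuclei with En1 or En2 and no Hox UMI, while 9 of the 31 nuclei with a Hox UMI had Tac1 and 5 had Trh. The 52 nuclei with neither level gene held both peptide genes as well. Tac1 had 32.65 CPM there against 40.24 in nuclei with Hox, and Trh had 35.16 against 34.05. Slc17a8 was seen in 3 of the 12 nuclei with En1 or En2 and in 8 of the 31 with Hox.

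Among kept nuclei, the comparison asked whether serotonergic nuclei were as common after CIH. They made up 0.207, 0.180 and 0.216% of kept nuclei in the CIH libraries, against 0.213, 0.227 and 0.298% in the normoxia libraries. The groups overlapped, and the means were 0.201% ± 0.0188 with CIH and 0.246% ± 0.0459 with normoxia (SD, n = 3 each). A two-sided exact permutation test over 20 assignments gave p = 0.2, where the smallest possible is 0.1. As a share of neurons (Meg3 of at least 5, at most 1 UMI of Mog and Mag) the means were 0.530% with CIH and 0.543% with normoxia (exact permutation p = 1.0, n = 3 each). Exact 95% binomial intervals, which cover counting error only, were wide, from 0.0777 to 0.354% in CIH library 2, against 0.198 to 0.431% in normoxia library 3. Without the shared barcodes the normoxia mean was 0.238% (exact permutation p = 0.5). The difference of -0.0450 percentage points shrank to -0.0188 without normoxia library 3. With a stricter rule of at least 3 Tph2 UMIs and 3 detected markers, the means were 0.165% with CIH and 0.230% with normoxia and the groups did not overlap (exact permutation p = 0.1). Such shares cannot separate fewer serotonergic neurons from a different recovery of their nuclei.

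Genes of brainstem level were detected in different shares of the nuclei with CIH and with normoxia. En1 or En2 was detected in 4 of 9, 3 of 8 and 3 of 23 nuclei of the CIH libraries, against 1 of 10, 0 of 15 and 1 of 28 nuclei of the normoxia libraries. Every CIH share was above every normoxia share, with means of 31.7% ± 16.5 and 4.52% ± 5.07 (SD, n = 3 each, exact permutation p = 0.1, the smallest possible). Hox UMIs went the other way, in 1 of 9, 0 of 8 and 7 of 23 nuclei of the CIH libraries, against 6 of 10, 7 of 15 and 10 of 28 nuclei of the normoxia libraries. Their means were 13.8% ± 15.4 with CIH and 47.5% ± 12.2 with normoxia (SD, n = 3 each, exact permutation p = 0.1), and the groups did not overlap. A count of 0 of 8 or 0 of 15 allows a large share, so the order among libraries of a group is not resolved. Without shared barcodes the normoxia mean of the Hox share was 50.1% and that of En1 or En2 was 4.52% (exact permutation p = 0.1 for both).

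**Figure D2:**
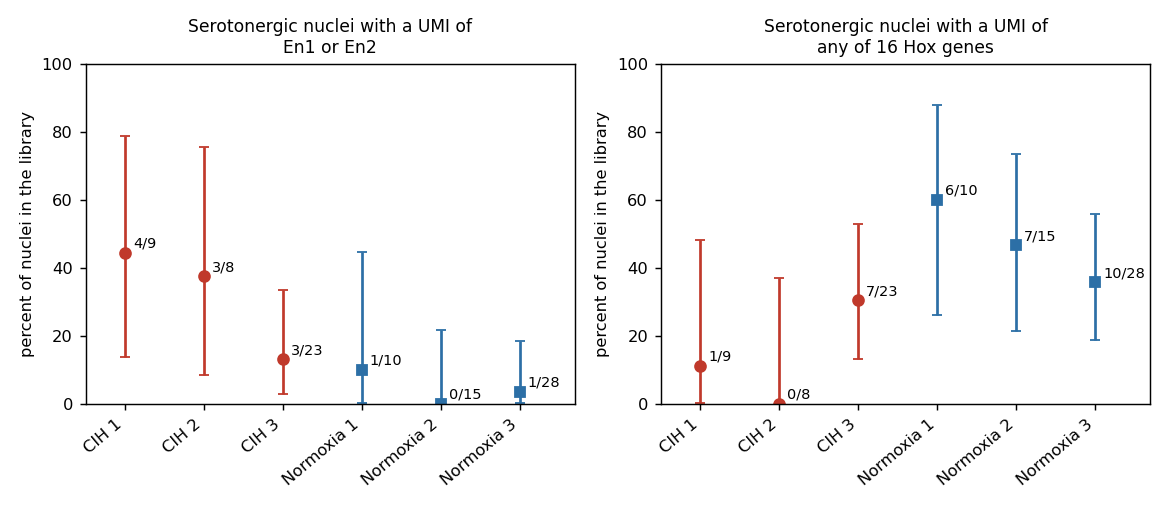
Percent of serotonergic nuclei with a UMI of En1 or En2 (left) and of any of 16 Hox genes (right) in each library, with exact 95% binomial intervals and the counts beside each point. CIH libraries (circles) lie above normoxia libraries (squares) for En1 or En2 and below them for Hox.

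Summed over the nuclei, the Hox genes had 7.76, 0 and 53.0 CPM in the CIH libraries, from 9 UMIs, against 116, 102 and 56.3 CPM in the normoxia libraries, from 39 UMIs. En1 and En2 had 54.4, 38.5 and 33.1 CPM with CIH, against 11.6, 0 and 3.52 CPM with normoxia, from 16 UMIs with CIH and 2 with normoxia. CIH library 3 and normoxia library 3 were nearly level for the Hox sum. Thinned to 2000 UMIs, which left 87 nuclei, the Hox share was 3.17% with CIH and 14.5% with normoxia and the share with En1 or En2 was 6.88% with CIH and 3.33% with normoxia (exact permutation p = 0.7 for both, n = 3 each). In oligodendrocyte nuclei the thinned shares were 5.80% for Hox and 1.88% for En1 or En2. How much of them was RNA from other cells was not tested. The same genes moved in other neurons of the same libraries. There En1 and En2 had 9.70, 12.2 and 5.16 CPM with CIH, against 2.85, 2.57 and 3.47 with normoxia, and the groups did not overlap. The Hox sum had 71.0, 76.4 and 131 CPM with CIH, against 177, 162 and 123 with normoxia, where the third libraries overlapped. Genes of cerebellar granule neurons, which lie beside the pons, had 421, 501 and 187 CPM in other neurons with CIH, against 161, 173 and 98.03 with normoxia. What a dissection at another level contributes to the differences between CIH and normoxia below was not tested.

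Gene by gene, the summed serotonergic nuclei held no difference between CIH and normoxia that passed the threshold, and 1 potassium channel gene, Kcnc2, came close. Of 2631 genes tested 0 had an adjusted p under 0.05 (0% of those tested; edgeR's quasi-likelihood F test with Benjamini-Hochberg adjustment), and 162 (6.16%) had an unadjusted p under 0.05. The sums held 128785, 103819 and 150911 UMIs with CIH, against 86043, 127764 and 284441 with normoxia. The median log2 fold change over all genes was 0.01. The CIH libraries lay above all normoxia libraries for 5.28% of genes and below all of them for 6.04%. DESeq2 called 2 genes, Tmem132c and Kcnc2, both lower with CIH, and 69 genes had an unadjusted p under 0.05 there. Without the shared barcodes edgeR called 1 gene, Kcnc2.

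**Figure D3:**
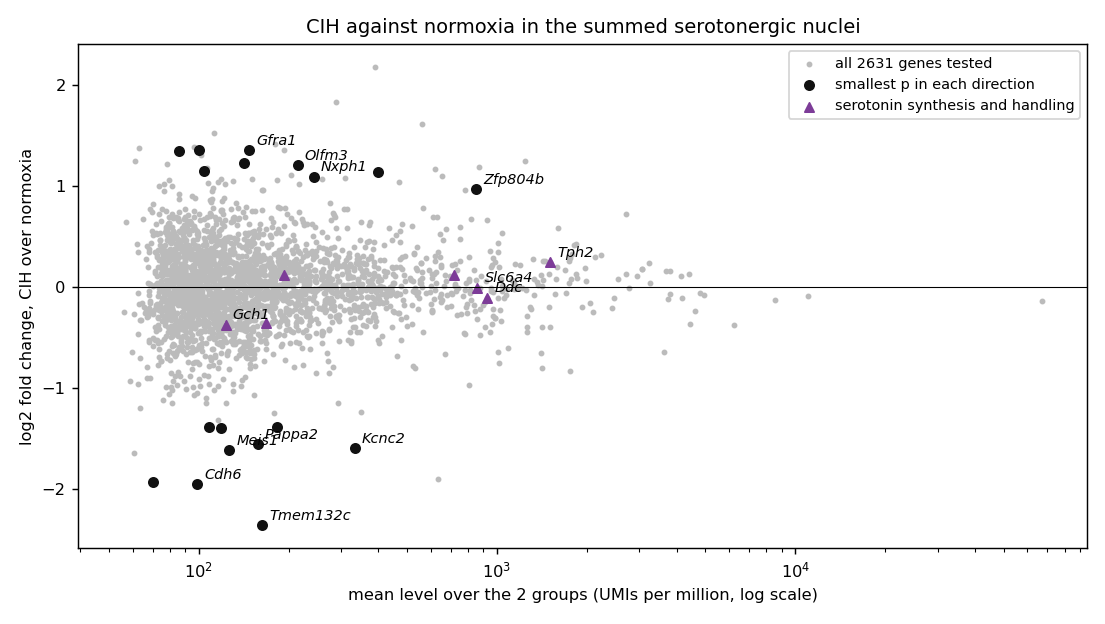
Log2 fold change of CIH over normoxia against the mean level in CPM (log scale) for each gene tested in the summed serotonergic nuclei. Black circles are the named genes of smallest p in each direction and triangles are genes of serotonin synthesis and handling, which lie between -0.37 for Gch1 and 0.25 for Tph2, with Tph2, Slc6a4, Slc18a2 and Slc22a3 used to choose the nuclei; no gene passed an adjusted p of 0.05.

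Among the genes of serotonin synthesis and handling that the rule did not use, Ddc, Gch1 and Maob were counted deeply enough for the test, and none of the 3 passed. Ddc had 660.0, 954 and 1054 CPM with CIH, against 1197, 791 and 907 with normoxia (log2 fold change -0.10 ± 0.25, SE). Gch1 had 93.2, 144 and 79.5 CPM with CIH, against 163, 149 and 109 with normoxia (-0.37 ± 0.34). Maob had 248, 154 and 192 CPM with CIH, against 209, 204 and 155 with normoxia (0.12 ± 0.28). The groups overlapped for each, and the adjusted p of Ddc, Gch1 and Maob ran from 0.968 to 0.992 in edgeR's test. Tph2, Slc6a4, Slc18a2 and Slc22a3 chose the nuclei, and a nucleus with little of them is no member, so their levels are a description with no test and do not bound a change. Tph2 had 1631, 1763 and 1498 CPM with CIH, against 1592, 1151 and 1403 with normoxia. Slc6a4 had 808, 1088 and 649 CPM with CIH, against 1418, 603 and 594 with normoxia. Normoxia library 1 was the highest for Slc6a4, and the groups overlapped for both genes. Slc18a2 had 512, 896 and 822 CPM with CIH, against 802, 642 and 622 with normoxia, and Slc22a3 had 69.9, 202 and 172 against 174, 211 and 179. Of the 17 listed genes 7 were in the fit, these 4 among them, with 3 above 0 and 4 below.

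**Figure D4:**
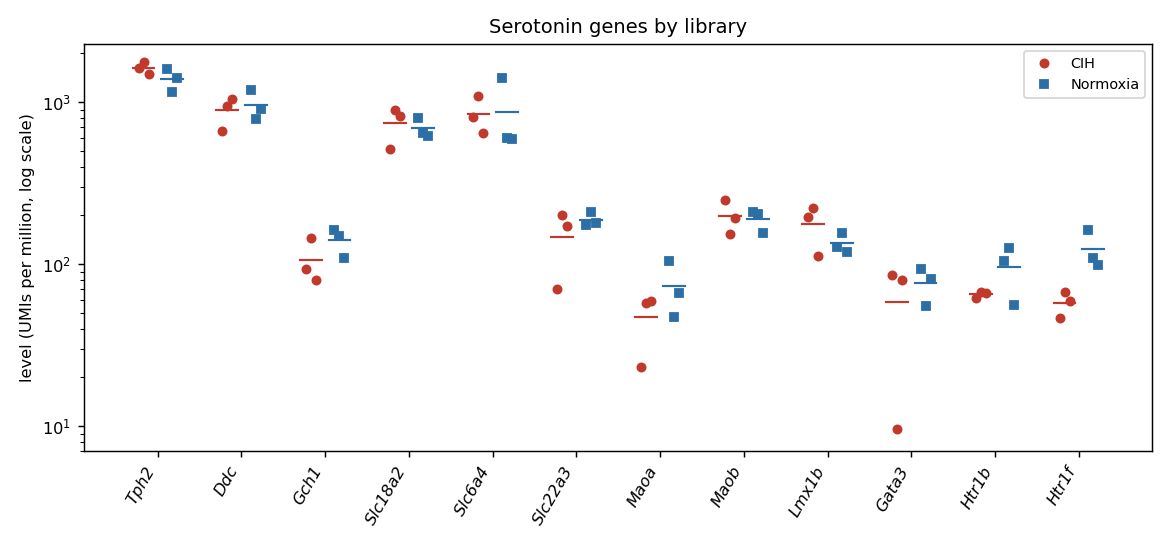
Level of serotonin genes in each library, in CPM on a log scale; CIH libraries are circles, normoxia libraries squares, bars the group means. The groups overlap except for Htr1f, whose 3 CIH libraries (46.6 to 67.4) lie below the 3 normoxia libraries (98.4 to 163).

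The transcription factors did not pass either. Lmx1b had 194, 222 and 113 CPM with CIH, against 128, 157 and 120 with normoxia (log2 fold change 0.38 ± 0.32, SE). Gata3 had 85.4, 9.63 and 79.5 CPM with CIH, against 92.98, 54.8 and 80.9 with normoxia, and CIH library 2 was the low one. The log2 fold change of Gata3 was -0.29 ± 0.52 (SE) and turned to 0.11 without that library.

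Of the serotonin receptors 2 were tested. Htr1f, an inhibitory receptor, had 46.6, 67.4 and 59.6 CPM with CIH, against 163, 110 and 98.4 with normoxia. The groups did not overlap, with a log2 fold change of -1.003 ± 0.36 (SE), an unadjusted p of 0.0138 and an adjusted p of 0.689 in edgeR's test. For Htr2c the groups overlapped, at -0.55 ± 0.46 (log2 fold change, SE). Too few UMIs of Htr1b were counted for a test, with 62.1, 67.4 and 66.3 CPM with CIH, against 105, 125 and 56.3 with normoxia. Htr1a had 0 UMIs in the 3 CIH libraries, against 2, 1 and 2 UMIs in the normoxia libraries, both at or under the limit of 3 counts per library.

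Of the genes with the smallest p, Kcnc2 came nearest to the threshold. It encodes Kv3.2, a fast voltage-gated potassium channel, and lies on chr10:112271121-112467024 (mm10, plus strand). It had 163, 135 and 199 CPM with CIH, against 407, 517 and 580 with normoxia. Every CIH library was below every normoxia library, with means of 166 ± 32.0 and 501 ± 87.7 (SD, n = 3 each), a log2 fold change of -1.59 ± 0.26 (SE) and an adjusted p of 0.0516 in edgeR's test. Other neurons of the same libraries had 422, 400 and 393 CPM with CIH, against 423, 418 and 443 with normoxia. The adjusted p of Kcnc2 fell under 0.05 under 7 of 15 alternatives, between 0.000896 with no filter on low counts and 0.202 without normoxia replicate 2. It was 0.0428 without the shared barcodes and 0.185 without the deepest nucleus of CIH library 1, which held 41.9% of that library's UMIs. The log2 fold change stayed between -1.75 and -1.34. The nucleus with the most Kcnc2 held 11 of 21, 8 of 14 and 17 of 30 UMIs with CIH. With normoxia it held 19 of 35, 28 of 66 and 60 of 165, and leaving out these normoxia nuclei was not tested.

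The other named genes with lower values in CIH were Pappa2, Cep112, Tmem132c, Meis1, Cdh6, Sh3rf3, Klhl1 and Ptpro, with adjusted p from 0.161 to 0.482, and 1 predicted gene was among the 10 of smallest p. Pappa2 had 77.7, 67.4 and 92.8 CPM with CIH, against 244, 204 and 260 with normoxia (log2 fold change -1.55 ± 0.30, SE). Meis1, a cofactor of Hox proteins, had 46.6, 38.5 and 92.8 CPM with CIH, against 186, 227 and 169 with normoxia (log2 fold change -1.61 ± 0.36, SE). In none of these did the groups overlap, as the choice by smallest p favours. Overlapping genes on the same strand are annotated for Pappa2, Cep112, Tmem132c, Meis1, Sh3rf3 and Ptpro, whose reads could not be told apart where they overlap. For Klhl1 they are annotated on the opposite strand only, and whether strand was used in counting is not given. Tmem132c had 31.1, 86.7 and 39.8 CPM with CIH, against 267, 415 and 141 with normoxia, the lowest fold change of these at -2.36 ± 0.48 (SE, log2). The cadherin Cdh6 had 38.8, 67.4 and 13.3 CPM with CIH, against 198, 172 and 102 with normoxia. Ptpro, a receptor phosphatase, had 62.1, 0 and 19.9 CPM with CIH, against 116, 117 and 105 with normoxia, and its log2 fold change of -1.93 went to -3.18 without CIH library 1.

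Genes with higher values in CIH were Olfm3, Zfp804b, Gfra1, Ptchd4, Hs6st2, Mdh1, Epha10, Nxph1 and Trak1, with adjusted p from 0.182 to 0.482, and 1 predicted gene was again among the 10. Olfm3, a secreted olfactomedin, had 318, 327 and 258 CPM with CIH, against 105, 149 and 130 with normoxia (log2 fold change 1.21 ± 0.27, SE). Gfra1, a co-receptor for GDNF, had 202, 212 and 245 CPM with CIH, against 46.5, 54.8 and 123 with normoxia (1.36 ± 0.35, or 2.10 without normoxia library 3). All CIH libraries were above all normoxia libraries for both. Zfp804b had 978, 1049.9 and 1352 CPM with CIH, against 499.8, 556 and 661 with normoxia. Hs6st2, a heparan sulfate sulfotransferase, had 512, 771 and 378 CPM with CIH, against 163, 329 and 246 with normoxia. Overlapping genes on the same strand are annotated for Zfp804b, Hs6st2, Mdh1, Nxph1 and Trak1, and reads could not be told apart where they overlap. For Gfra1 and Epha10 they are annotated on the opposite strand only, and whether strand was used in counting is not given. Mdh1, malate dehydrogenase, which overlaps Wdpcp on the opposite strand, had 139.8, 86.7 and 139 CPM with CIH, against 69.7, 31.3 and 49.2 with normoxia. Nxph1, a ligand of neurexins, had 256, 318 and 437 CPM with CIH, against 116, 110 and 218 with normoxia. The nucleus with the most Nxph1 held 12 of 33, 32 of 33 and 26 of 66 UMIs with CIH. With normoxia it held 8 of 10, 6 of 14 and 14 of 62. For Ptchd4 such a nucleus held 22 of 25, 9 of 16 and 14 of 39 UMIs with CIH. With normoxia it held 2 of 6, 4 of 9 and 9 of 30.

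**Figure D5:**
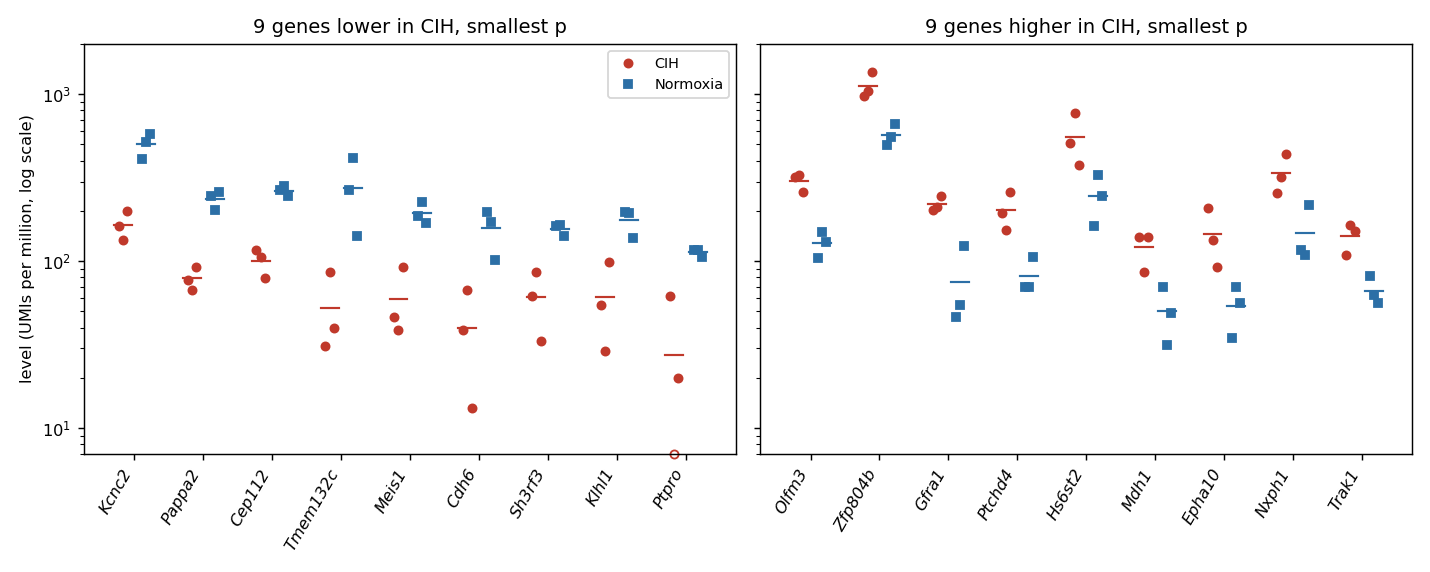
Level of the named genes of smallest p in each library, in CPM on a log scale, for genes lower (left) and higher (right) in CIH. Circles are CIH libraries, squares normoxia libraries, bars group means; the open circle on the axis is the CIH library in which Ptpro had 0 UMIs. Kcnc2 was 135 to 199 with CIH and 407 to 580 with normoxia.

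Some of these genes also differed between nuclei split by detected level genes, a split made after the values were seen and given with no test. Meis1 had 1 UMI in the 10 nuclei with En1 or En2 and no Hox UMI (6.23 CPM over both groups), against 241 CPM in the 31 nuclei with a Hox UMI. Tmem132c likewise had 6.23 CPM in nuclei with En1 or En2 against 235 in nuclei with Hox. Kcnc2 had 106 CPM in nuclei with En1 or En2 against 570 in nuclei with Hox. Nxph1 had 542 CPM in nuclei with En1 or En2 against 198 in nuclei with Hox, and Pcdh15, a protocadherin, had 1644 against 433. The deepest nucleus, with 53943 UMIs, was among the 8 CIH nuclei with En1 or En2 and no Hox, which had 144037 UMIs in all. Within the nuclei with a Hox UMI, 8 from CIH and 23 from normoxia, Kcnc2 had 295 CPM with CIH and 657 with normoxia, and Meis1 had 167 with CIH and 265 with normoxia. The 2 nuclei that also had En1 or En2 were counted here, and both were from CIH. They gave 13739 and 26784 of the 77974 UMIs of the CIH nuclei with Hox. Most of those 8 CIH nuclei came from CIH library 3, so the 2 sides were not matched for level or library. Within the nuclei with neither, 24 from CIH and 28 from normoxia, Kcnc2 had 161 CPM with CIH and 439.5 with normoxia, and Meis1 had 61.9 with CIH and 118 with normoxia. All 9 named genes with lower values in CIH were lower with CIH in both of these classes. The named genes were chosen by smallest p in these same nuclei, which favours such agreement, so these counts are a description only. In the 10 nuclei with En1 or En2 and no Hox, 8 from CIH and 2 from normoxia, 4 of the 9 were higher with CIH, among them Kcnc2 at 111.1 CPM with CIH, from 16 UMIs, and 60.4 with normoxia, from 1 UMI. Of the 9 named genes with higher values in CIH, 9 were higher with CIH in nuclei with Hox, 8 in nuclei with En1 or En2, and 7 in nuclei with neither. The exceptions were Trak1 in nuclei with En1 or En2, at 132 CPM with CIH and 181 with normoxia, and in nuclei with neither Nxph1, at 155 and 177, and Ptchd4, at 49.5 and 59.2.

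Receptors and channels as groups had no gene past the threshold. Of 24 glutamate receptor genes 19 were tested, 11 above 0 and 8 below, with a median log2 fold change of 0.10 beside 0.01 over all genes. Grin3a, a subunit of NMDA receptors, had 85.4, 57.8 and 79.5 CPM with CIH, against 151, 133 and 169 with normoxia (log2 fold change -1.02 ± 0.32, SE). Grin1, the obligatory subunit, had 373, 241 and 199 CPM with CIH, against 198, 172 and 151 with normoxia (0.68 ± 0.29). In both the groups did not overlap, though CIH library 3 and normoxia library 1 were nearly level for Grin1. Of 20 GABA and glycine receptor genes 12 were tested, 6 on each side of 0, with a median of -0.06. Of 38 genes of pacemaking and firing 24 were tested, 19 above 0 and 5 below, with a median of 0.22, and 51.5% of all genes were above 0. Among these Kcnd3, an A-type potassium channel, had 139.8, 250.4 and 146 CPM with CIH, against 105, 39.1 and 102 with normoxia (1.06 ± 0.38, adjusted p = 0.689 in edgeR's test). All 4 of the tested genes of carbon dioxide or proton sensing, of 25 listed, lay between 0.07 and 0.18.

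Genes of the response to low oxygen were little counted. Of 32 listed genes 4 were tested, Arnt2, Arnt, Pfkp and Hk1, with log2 fold changes from -0.31 to 0.56 and adjusted p from 0.967 to 0.994 in edgeR's test. Hif1a, too low for the test, had 54.4, 77.1 and 79.5 CPM with CIH, against 69.7, 62.6 and 66.8 with normoxia, and the groups overlapped. Of 18 glucocorticoid response genes 4 were tested. Sgk1, a stress-regulated kinase, had 217, 154 and 119 CPM with CIH, against 34.9, 93.9 and 109 with normoxia, without overlap (0.88 ± 0.37, adjusted p = 0.775). In the immediate early list 1 gene of 18, Homer1, was tested, at -0.20 ± 0.52 (SE). Of the clock list Clock was at -0.38 and Rora at 0.43, of the redox and chaperone list Hsp90ab1 at 0.69 and Atf6 at 0.22, and of the input receptors Prlr at -0.76 and Adra1b at -0.33 (log2 fold changes, adjusted p from 0.850 to 0.991 in edgeR's test). The log2 fold change of Prlr was -1.96 without CIH library 3, and that of Rora was 1.203 without normoxia library 3.

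Genes of peptide processing and release did not pass either, with 20 of 30 tested, 8 above 0 and 12 below, and a median of -0.05. Pcsk2, a prohormone convertase, had 412, 308 and 424 CPM with CIH, against 709, 775 and 552 with normoxia (log2 fold change -0.80 ± 0.24, SE). Cpe, the carboxypeptidase that acts after it, had 248, 318 and 252 CPM with CIH, against 174, 141 and 169 with normoxia (0.75 ± 0.26). The groups did not overlap for either gene. Of 34 genes of axon guidance and adhesion 27 were tested, 17 above 0 and 10 below, with a median of 0.06. Of all 27, 3 had the CIH libraries above all normoxia libraries and 1, Cdh6, below them, beside 5.28% and 6.04% of all genes. Pcdh15 was among the higher ones, with 799.8, 1339 and 1531 CPM with CIH, against 477, 313 and 780.5 with normoxia. The nucleus with the most Pcdh15 held 22 of 103, 100 of 139 and 78 of 231 UMIs with CIH. With normoxia it held 14 of 41, 15 of 40 and 33 of 222.

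Shares of nuclei with cotransmitter and peptide genes were compared over libraries. Slc17a8 was detected in 3 of 9, 3 of 8 and 5 of 23 nuclei with CIH, against 2 of 10, 4 of 15 and 3 of 28 with normoxia (means 30.9% ± 8.17 and 19.1% ± 8.01, SD, n = 3 each, exact permutation p = 0.2). Its groups did not overlap after thinning, at 16.8% with CIH and 5.41% with normoxia (exact permutation p = 0.1), and without shared barcodes the unthinned normoxia mean was 22.4% (exact permutation p = 0.4). Tac1 was detected in 0 of 9, 1 of 8 and 4 of 23 nuclei with CIH, against 2 of 10, 4 of 15 and 6 of 28 with normoxia (means 9.96% ± 8.97 and 22.7% ± 3.51, SD, n = 3 each, exact permutation p = 0.1). The groups did not overlap for Tac1, but thinned to 2000 UMIs its means were 4.76% with CIH and 4.22% with normoxia, and without shared barcodes its unthinned normoxia mean was 25.9%. Trh was detected in 0 of 9, 2 of 8 and 5 of 23 nuclei with CIH, against 0 of 10, 2 of 15 and 5 of 28 with normoxia, and Gad2 in 3 of 9, 1 of 8 and 2 of 23 against 1 of 10, 0 of 15 and 4 of 28. Both overlapped between the groups (exact permutation p = 0.6 and p = 0.5, n = 3 each).

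Markers of other cell types were present, at levels that differed between libraries. The summed astrocyte markers had 77.6, 183 and 404 CPM in serotonergic nuclei with CIH, against 58.1, 54.8 and 35.2 with normoxia, without overlap. In these nuclei 7 of 8 of the genes had a UMI, with Agt at 0. Other neurons of the same libraries had 328, 323 and 400 CPM of them with CIH, against 181, 206 and 146 with normoxia, also without overlap. In serotonergic nuclei the other lists were as follows. The summed oligodendrocyte markers had 139.8, 202 and 1001 CPM with CIH, against 314, 274 and 338 with normoxia, with 9 of 9 detected and CIH library 3 the highest. Microglial markers had 53.0 to 106 CPM with CIH, against 70.4 to 98.4 with normoxia, with Csf1r and C1qa at 0. Endothelial markers had 15.5 to 86.1 CPM with CIH, against 7.83 to 14.1 with normoxia, and precursor markers 0 to 13.3 against 7.83 to 23.2. Granule neuron markers had 23.3 to 202 CPM with CIH, against 23.5 to 58.1 with normoxia. Of the 5 noradrenergic markers 0 had a UMI, of the 4 cholinergic ones 1 had a UMI, with Chat, Slc18a3 and Isl1 at 0, and of the 4 dopaminergic ones 2 had a UMI, with Th and Slc6a3 at 0. Among tested marker genes the myelin gene Mbp was at 0.70 ± 0.69 and turned to -0.96 without CIH library 3 (log2 fold change, SE). Mitochondrially encoded RNAs had 295, 433 and 1696 CPM with CIH, against 767, 274 and 408 with normoxia. The part of these cells or RNAs in the differences above was not tested.

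The difference between CIH and normoxia was then compared between serotonergic nuclei and other neurons of the same libraries. None of 2630 genes passed (0%, limma on the difference in log2 level with Benjamini-Hochberg adjustment), 170 had an unadjusted p under 0.05, and the smallest adjusted p was 0.232, for Cep85l. Kcnc2 differed between the 2 classes in its CIH effect by -1.45 ± 0.27 (SE, log2, adjusted p = 0.238) and Meis1 by -1.71 ± 0.33 (adjusted p = 0.238). The effect of CIH in other neurons was -0.10 for Kcnc2 and 0.04 for Meis1. No gene passed without the shared barcodes, where the smallest adjusted p was 0.192.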

How the data were processed

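Single nuclei of pons and medulla were sorted by flow cytometry and profiled with 10x Genomics 3' chemistry, per the labels' protocols. The authors deposited raw UMI counts per gene and barcode, made with Cell Ranger. Its version reads 6.1.2 in the matrix headers, while the submitters' processing notes name version 3.1.0. Those notes list Seurat 4.0 and the mm10 genome as well. Whether intronic reads or strand were used in counting is not given in the sources used here. Gene positions are from GENCODE M21, in which 32158 genes of the matrices matched.

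UMIs were summed per library over serotonergic nuclei and compared with edgeR 4.0.16 in R 4.3.3 (trimmed mean of M-values, filterByExpr, quasi-likelihood F test, threshold 0.05). Alternatives were relative log expression scaling, DESeq2 1.42.0, no low-count filter, a replicate block, each library left out, at least 1000 genes with at most 1% mitochondrial UMIs, a stricter rule (Tph2 of at least 3, 3 markers detected) and removal of top Scrublet scores (scanpy 1.11.5; 0.8% per 1000 barcodes, which took 2 nuclei; no nucleus was removed as a doublet otherwise). Leaving out shared barcodes, the deepest nucleus, or libraries from the shares of level and transmitter genes was added after the data were seen. Effects were compared between classes with limma 3.58.1 (prior count 1), and shares by two-sided exact permutation. Intervals and floors (3 counts) cover counting error only. Both gene tests were tested on simulated data with known changes, where most 2-fold changes were missed and most 4-fold changes were found. A gene that did not pass may therefore still differ. In the simulated test of CIH against normoxia, unchanged genes made a larger share of the calls than the threshold of 0.05, so a gene near it may be a false call. No pair of libraries agreed within sampling noise (2.20 to 3.32 chi-square per gene).

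The nuclei and gene lists were chosen with earlier results of these data known. Named genes were those past the threshold, of which there were none, the 10 higher and 10 lower of smallest p, up to 4 of each list by smallest p, any member of the lists of serotonin synthesis, transcription factors, transmitters, peptides and serotonin receptors, and the 15 of highest ratio to other neurons (1 CPM added, at least 20 UMIs in each group); predicted genes were counted only, and 1 gene that the rule names is not reported here. Genes called under an alternative, Cep85l, Hif1a, Kcnn3, Glra2, levels of input receptors and of genes of carbon dioxide or proton sensing, and the split by level genes were chosen after values were seen.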

Additional observations from a re-analysis of the deposited data

How the results depend on the processing

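The number of genes called moved between 0 and 14. It was 1 with relative log expression scaling, 2 with DESeq2, 14 of 17120 with no filter on low counts, 1 with the mitochondrial and gene minimum raised and 1 without the shared barcodes, and it stayed at 0 with the stricter rule, without top doublet scores and without the deepest nucleus. Leaving out 1 library gave 0 to 2 calls, and the cause was not tested. The call was Slc4a4 without CIH replicate 1, Gpc5 without CIH replicate 2 and a predicted gene without CIH replicate 3. It was Kcnc2 without normoxia replicate 1, and there were 0 calls without normoxia replicate 2. Tmem132c and Slc39a11 were called without normoxia replicate 3. Slc4a4 and Gpc5 were higher with CIH, and Slc4a4 is one of the listed astrocyte markers, whose sum was also higher with CIH. The part of astrocyte RNA in these calls was not tested. With the replicate block 3 genes were called (Tmem132c, Erbb4 and Kcnc2), but same-numbered libraries did not deviate together (correlations -0.09, -0.04 and 0.07), so the numbers were not taken as pairs. The count of genes that differed from other neurons stayed at 0 under all alternatives, the replicate block included. Of 1007 values of 68 named genes under 15 alternatives, 958 kept their direction and side of the threshold. A further 16 passed it and 33, in 17 genes, changed sign. None of the 9 lower and 9 higher genes of smallest p changed sign, as their choice by smallest p favours. Slc6a4, at -0.00, went to 0.0236 with no filter, 0.0583 with the replicate block, 0.0237 with the raised minimum, 0.0484 with the stricter rule, 0.0239 without shared barcodes and 0.0536 without the deepest nucleus, and Car10, at 0.07, to -0.011 without top doublet scores and -0.0207 without the deepest nucleus. With 1 library left out, log2 fold changes ran over these ranges that hold 0: Slc18a2 -0.0311 to 0.33, Gata3 -0.62 to 0.11, Tle4 -0.15 to 0.40, Adra1b -0.78 to 0.072, Asic2 -0.0793 to 0.29, Slc4a10 -0.11 to 0.57, Kcnk10 -0.28 to 0.58, Car10 -0.19 to 0.26, Arnt -0.71 to 0.0524, Hk1 -0.40 to 0.34, Zbtb16 -0.50 to 0.67, Homer1 -0.53 to 0.26, Rora -0.0198 to 1.203, Atf6 -0.11 to 0.51, mt-Co3 -0.17 to 1.87, Mbp -0.96 to 1.09, Slc6a4 -0.23 to 0.50. The Tac1 share difference (CIH minus normoxia, percentage points) turned from -12.7 to 0.541 after thinning, and that of Trh ran from -0.015 without normoxia replicate 1 to 12.97 without CIH replicate 1; the causes were not tested. With 93 nuclei, depth limits the test to genes of high level, 2631 of those measured, and 1 nucleus held 41.9% of the UMIs of CIH library 1.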
